A study of Mus musculus with 9 samples.

Results

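NFAT factors and the subunits of the phosphatase calcineurin were followed across RNA libraries of resting regulatory T cells, a CD4 lineage that restrains immune responses and depends on the transcription factor Foxp3. The set holds 8 genes of the 34092 gene rows in the count table, found there by their symbols: the NFAT factors Nfatc1, Nfatc2, Nfatc3 and Nfat5, the calcineurin catalytic subunits Ppp3ca, Ppp3cb and Ppp3cc, and the regulatory subunit Ppp3r1. All 8 passed the filter on low counts, which left 14424 genes. The tested cells came from mice labelled CNS2KO, genotype Foxp3deltaCNS2-gfp, which lack CNS2, a conserved noncoding element inside Foxp3. They were set against cells labelled WT, genotype Foxp3gfp, and by these names both genotypes carry a green fluorescent protein at Foxp3. Cells were sorted from mice without stimulation, and the labels give no age, sex or number of animals. Libraries CNS2KO 399 and 408 and WT 398, 402, 405, 1032 and 1037 were used. The labels do not say what the numbers mean, and separate animals are not stated, so the p-values rest on a spread among libraries that may be technical only.

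Calcineurin is a phosphatase switched on by calcium and calmodulin after the T cell receptor is engaged. Its catalytic subunit is joined to a small calcium-binding regulatory subunit, and the active enzyme removes phosphates from NFAT proteins in the cytoplasm, which then enter the nucleus. In stimulated regulatory T cells NFAT binds regulatory DNA of Foxp3, CNS2 included, and partners with Foxp3 itself on many genes. The question was whether the transcripts of this pathway differed, before stimulation, between cells without and with CNS2.

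Calcineurin holds its NFAT substrates through a short docking motif of the form PxIxIT. In the longest annotated reading frame of each gene (GENCODE M21, build GRCm38) this motif was found 1 time in Nfatc1, Nfatc2 and Nfatc3 and 0 times in Nfat5, the family member known for its response to salt and osmotic stress rather than to calcineurin. The motif counts thus separate Nfatc1, Nfatc2 and Nfatc3 from Nfat5. The coding stretches show the motif in Nfatc2 and Nfatc3, and that of Nfatc1 is not reported here. Capitals mark the codons of the motif. Nfatc2 lies on the minus strand of chromosome 2 and Nfatc3 on the plus strand of chromosome 8, and the stretches run over bases 325 to 354 and 322 to 351 of the coding sequence.
Nfatc2 docking motif: ccgagcCCTCGGATCGAGATCACTccatcc
Nfatc3 docking motif: gagtgcCCAAGTATTCAAATCACAtccatt

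The catalytic subunits are close relatives, so reads could in principle be shared between them. Their coding sequences were 73.4 to 74.3% identical over aligned bases, and the longest run shared by any pair was 23 bases, in Ppp3ca (chromosome 3, plus strand) and Ppp3cc (chromosome 14, minus strand). That run is shown with the bases around it, with the shared run in capitals, because it is the longest identical stretch in the catalytic family.
Ppp3ca in the pair Ppp3ca and Ppp3cc: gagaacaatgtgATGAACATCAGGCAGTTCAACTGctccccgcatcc
Ppp3cc in the pair Ppp3ca and Ppp3cc: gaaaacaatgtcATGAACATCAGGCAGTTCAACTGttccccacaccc
No stretch of 50 bases in annotated transcripts of Nfatc1, Nfatc2, Ppp3ca or Ppp3cb occurred in a transcript of another gene. For Nfatc3, Nfat5 and Ppp3cc the share of such stretches was 1.70%, 0.678% and 1.51%. Ppp3r1 stood out at 13.0%, because its exons overlap those of Wdr92 on the same strand over 14.3% of their length. The sources used here do not say whether the authors' counting used strand. A strand setting would not separate Ppp3r1 from Wdr92, and how reads over both genes were treated is not described. The authors' counts hold a separate row of ambiguous reads, from 113976 in WT 402 to 152711 in CNS2KO 399, which was set aside here.

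Both CNS2KO libraries were deeper than every WT library, with 21836578 and 21427618 reads on genes in CNS2KO 399 and 408 against 16557424 to 19154642 in WT, and the part of depth in the results was not tested. The members had 177 to 2791 reads each per library. The 5 regulatory T cell markers Foxp3, Il2ra, Ctla4, Ikzf2 and Tnfrsf18 together stood at 3899 and 4298 CPM (counts scaled to library size by TMM, on a per-1000000 scale) in CNS2KO 399 and 408 and at 3748 to 4397 CPM in the WT libraries. Markers of other cells were low, with 80.4 and 37.8 CPM for 4 B cell genes in CNS2KO 399 and 408 against 41.2 to 53.9 CPM in WT. The 5 myeloid markers summed to 25.5 and 27.4 CPM in CNS2KO against 6.98 to 31.2 CPM in WT, and the 5 CD8 T and NK cell markers to 22.7 and 30.4 CPM in CNS2KO against 28.6 to 45.8 CPM in WT, with Ncr1 at 0 in every library. CNS2KO 399 stood apart by 4 erythroid markers, at 125 CPM, against 23.9 CPM in CNS2KO 408 and 5.50 to 19.9 CPM in WT. CNS2KO 399 also lay below every WT library in 19.8% of tested genes and above every one in 20.1%, shares that were 9.48% and 12.8% for CNS2KO 408. In bulk samples such as these, fewer cells of a type and less RNA per cell cannot be told apart.

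NFAT transcripts were read at like levels in both genotypes. Nfatc1, the NFAT factor whose own gene is induced by NFAT in activated lymphocytes, stood at 121 and 120.0 CPM in CNS2KO 399 and 408. In WT it stood at 152 CPM in library 398, 74.6 in 402, 132 in 405, 90.6 in 1032 and 112 in 1037. The CNS2KO libraries lay close together in the middle of a wide WT range, and the groups overlapped.

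Nfatc2, an NFAT factor already present in resting T cells, stood at 44.5 CPM in CNS2KO 399 and 47.7 CPM in CNS2KO 408, against 63.4, 48.0, 47.7, 74.8 and 38.7 CPM in WT 398, 402, 405, 1032 and 1037. WT 1032 was the highest library and WT 1037 the lowest, with both CNS2KO libraries between WT 1037 and the rest. Nfatc3, another calcium-regulated member, stood at 68.1 and 75.0 CPM in CNS2KO 399 and 408, against 77.5, 71.4, 83.2, 68.5 and 79.7 CPM in the same order of WT libraries. CNS2KO 399 was just below the lowest WT library and CNS2KO 408 was inside the WT range. Nfat5 stood at 68.8 and 89.6 CPM in CNS2KO 399 and 408, against 101, 94.7, 74.5, 70.2 and 75.8 CPM in WT. Here too CNS2KO 399 was just under the lowest WT value. The remaining calcium-regulated factor Nfatc4, which was listed for comparison, had 2 reads in CNS2KO 408 and 0 in the other libraries and did not pass the filter.

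Among the catalytic subunits, Ppp3ca and Ppp3cb varied less between libraries than Ppp3cc. Ppp3ca, the alpha isoform, stood at 48.0 and 61.5 CPM in CNS2KO 399 and 408, against 54.9, 51.6, 69.5, 60.5 and 63.0 CPM in WT 398, 402, 405, 1032 and 1037. Ppp3cb, the beta isoform, which mouse studies tie to T cell development and activation, stood at 62.1 and 81.8 CPM in CNS2KO, against 65.6, 55.0, 63.0, 68.0 and 73.4 CPM in WT. For Ppp3ca, CNS2KO 399 was the lowest library of all, and for Ppp3cb, CNS2KO 408 was the highest. Ppp3cc, the gamma isoform known mainly from testis, stood at 9.08 CPM in CNS2KO 399 and 21.1 CPM in CNS2KO 408, against 15.8, 24.7, 22.1, 9.56 and 24.97 CPM in WT. CNS2KO 399 and WT 1032 formed a low pair for Ppp3cc, at 192 and 177 reads (exact 95% Poisson intervals 166 to 221 and 152 to 205, counting error only), while the other 5 libraries had 290 to 441 reads.

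Ppp3r1, the only widely expressed regulatory subunit, varied more between libraries than any other member. It stood at 9.36 CPM in CNS2KO 399 and 42.1 CPM in CNS2KO 408, against 20.1, 34.8, 35.2, 26.0 and 13.4 CPM in WT 398, 402, 405, 1032 and 1037. The lowest and the highest of all 7 libraries were thus the 2 CNS2KO libraries, with 198 reads (exact 95% Poisson interval 171 to 228) and 879 reads (822 to 939). Wdr92, the gene that overlaps it, stood at 62.1 and 53.6 CPM in CNS2KO 399 and 408, against 35.8, 41.1, 23.3, 49.4 and 58.4 CPM in WT. Wdr92 was highest in CNS2KO 399 and WT 1037, the 2 libraries with the lowest Ppp3r1. However, CNS2KO 408, with the highest Ppp3r1, had more Wdr92 than every WT library except 1037. The part of Wdr92 in the Ppp3r1 values was not tested. The testis gene Ppp3r2, which encodes another regulatory subunit, had 1 read, in CNS2KO 408, and 0 elsewhere.

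**Figure D1:**
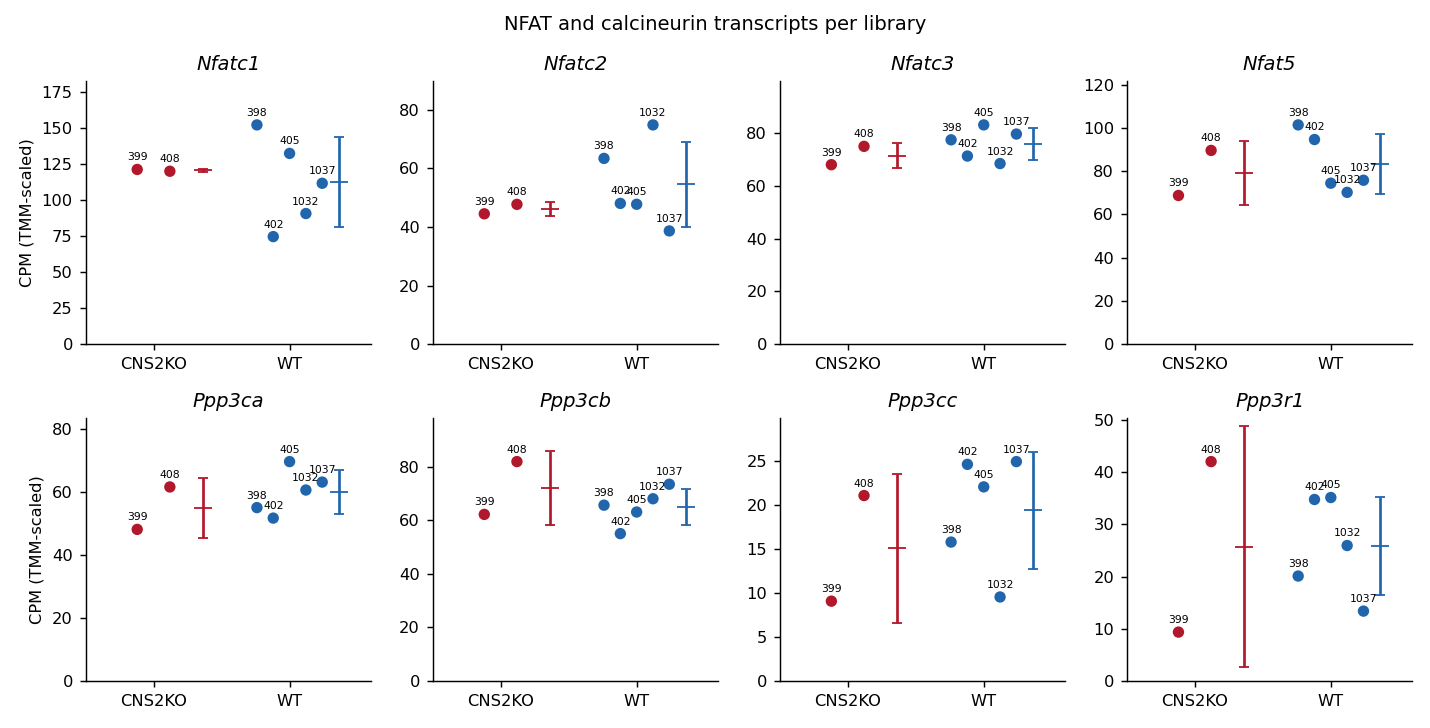
TMM-scaled CPM (y axis) of each gene in the CNS2KO libraries (red, n = 2) and WT libraries (blue, n = 5), with library numbers; bars give the mean ± SD. The 2 CNS2KO libraries nearly coincide for Nfatc1 and lie at opposite ends for Ppp3r1, at 9.36 and 42.1 CPM.

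None of the 8 genes differed between the genotypes beyond the spread between libraries. edgeR's quasi-likelihood test with Benjamini-Hochberg adjustment called 0 of 8 at an FDR of 0.05, as it called 0% of the 14424 genes tested, and the members' adjusted p was 0.9999 throughout. At an unadjusted p under 0.05 it had 0 of 8, where 2.5% of all tested genes lay under that limit, and DESeq2 and limma-voom also called 0 genes and had 0 members under it. In 0 of 8 genes did both CNS2KO libraries lie outside the WT range, a pattern seen in 6.76% of tested genes (3.76% above and 3% below). CNS2KO 399 alone lay below every WT library in 5 of 8 and CNS2KO 408 above every WT library in 2 of 8, against the 19.8% and 12.8% of tested genes given above.

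The narrowest estimates were those of Nfatc3, Ppp3cb and Ppp3ca. Nfatc3 averaged 71.6 ± 4.92 CPM in CNS2KO (SD, n = 2) and 76.0 ± 6.02 CPM in WT (SD, n = 5), a log2 fold change of -0.09 (SE 0.19) with a 95% interval of -0.50 to 0.32. Ppp3cb averaged 71.98 ± 13.9 CPM in CNS2KO and 65.0 ± 6.79 CPM in WT, with a log2 fold change of 0.15 (SE 0.21, 95% interval -0.30 to 0.60). Ppp3ca had a log2 fold change of -0.13 (SE 0.22, 95% interval -0.60 to 0.34), from 54.8 ± 9.52 CPM in CNS2KO and 59.9 ± 7.003 CPM in WT. The intervals of the other NFAT factors were somewhat wider. Nfatc1 had a log2 fold change of 0.10 (SE 0.26, -0.46 to 0.66) from means of 121 ± 0.885 CPM in CNS2KO and 112 ± 31.1 CPM in WT. Nfatc2 had -0.24 (SE 0.27, -0.84 to 0.35) from 46.1 ± 2.28 and 54.5 ± 14.4 CPM in CNS2KO and WT. Nfat5 had -0.07 (SE 0.22, -0.55 to 0.41) from 79.2 ± 14.7 and 83.3 ± 13.8 CPM in CNS2KO and WT.

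The widest intervals were those of Ppp3cc and Ppp3r1. Ppp3cc had a log2 fold change of -0.36 (SE 0.44, 95% interval -1.33 to 0.60), from 15.1 ± 8.50 CPM in CNS2KO and 19.4 ± 6.63 CPM in WT. Ppp3r1 had -0.01 (SE 0.51, -1.13 to 1.11), from 25.7 ± 23.1 CPM in CNS2KO and 25.9 ± 9.42 CPM in WT, so nearly equal means came from very unequal CNS2KO libraries. Leaving out CNS2KO 399 turned Ppp3r1 to 0.70 (unadjusted p = 0.15, edgeR), Ppp3cc to 0.13, Nfat5 to 0.11 and Ppp3ca to 0.04, while leaving out CNS2KO 408 gave Ppp3r1 -1.47 (unadjusted p = 0.023, edgeR, adjusted p = 0.38) and Ppp3cc -1.10 and turned Ppp3cb to -0.07. In those fits 1 library stands for the genotype and is assumed to vary like the WT libraries. Of the WT libraries, leaving out 402 turned Nfatc1 to -0.01 and Ppp3r1 to 0.12, leaving out 405 turned Ppp3r1 to 0.12, and leaving out 398 turned Nfat5 to 0.01.

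**Figure D2:**
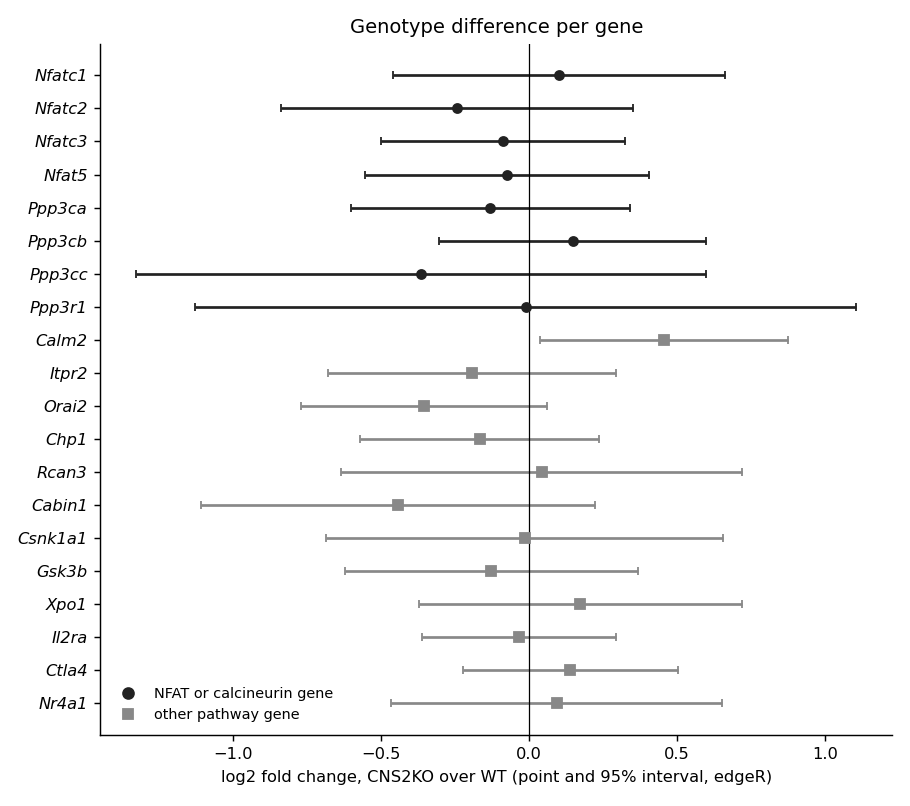
Log2 fold change of CNS2KO over WT (x axis, edgeR) with 95% intervals for the members (circles) and pathway genes named in the text (squares). Intervals of all 8 members include 0, with the widest for Ppp3r1, at -1.13 to 1.11.

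The direction of the members as a set depended on the CNS2KO library. Their log2 fold changes were above 0 in 2 of 8 (47.4% of all tested genes) and below 0 in 6 of 8 (52.6%), with a median of -0.08 beside -0.03 over all genes tested. Of the members, 7 of 8 lay below the WT mean in CNS2KO 399 and 2 of 8 in CNS2KO 408, and 5 of 8 lay on opposite sides. The same counts were not taken over all tested genes, so they do not set the members apart from other genes. Without CNS2KO 399 the members' median was 0.10, beside -0.04 over all genes tested in that fit, and without CNS2KO 408 it was -0.29, beside -0.12 over all genes. Erythroid and B cell markers were highest in CNS2KO 399, the library with 7 members below the WT mean, and their part in these values was not tested.

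**Figure D3:**
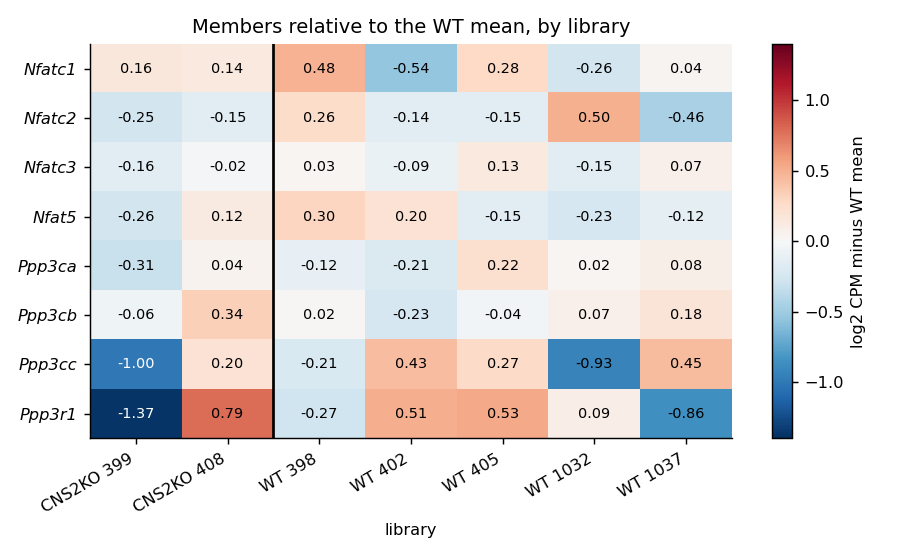
Log2 CPM of each gene minus its WT mean (colour and printed value) by library, CNS2KO left of the line. Ppp3cc and Ppp3r1 hold the largest deviations, down to -1.37 in CNS2KO 399, while every Nfatc3 value lies between -0.16 and 0.13.

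Among WT libraries alone the members lay at both ends of the range of variability. The coefficient of variation over the 5 WT libraries was 7.92% for Nfatc3, 10.4% for Ppp3cb, 11.7% for Ppp3ca and 16.6% for Nfat5. It was 26.4% for Nfatc2, 27.7% for Nfatc1, 34.1% for Ppp3cc and 36.4% for Ppp3r1. The median was 21.2% over the 5097 tested genes with a mean CPM inside the members' range, 18.2 to 115 CPM. That range is wide, with Ppp3cc at its lower end (18.2 CPM) and Ppp3r1 near it (25.8 CPM). The comparison is therefore not matched to the level of each gene. Of those genes, 3.18% varied less than Nfatc3 and 7.69% less than Ppp3cb, whereas 88.2% varied less than Ppp3cc and 91.0% less than Ppp3r1. The highest WT library was 1.21 times the lowest for Nfatc3, 2.04 times for Nfatc1 and 2.63 times for Ppp3r1.

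Members did not vary as a block over the 7 libraries. Of 28 pairs, 19 had a Pearson's r of log2 CPM above 0, with values from -0.53 for Nfatc2 and Ppp3cc to 0.72 for Nfatc3 and Ppp3ca. The r of the regulatory subunit Ppp3r1 was 0.47 with Ppp3ca, 0.08 with Ppp3cb and 0.48 with Ppp3cc. These are descriptions over 7 libraries of both genotypes, which share library preparation and depth. By the same measure, the genes most like Nfatc1 among 11127 searched were Polm (r = 0.96), Hdac6 (0.96) and Dkkl1 (0.96), and 68 genes had an r above 0.9. Most like Ppp3cb were Ncapg (0.99), Fgfr1op2 (0.96) and Zbp1 (0.95), with 19 genes above 0.9. How many genes would reach such an r over 7 libraries without any link was not tested.

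The make-up of the family can be read without library scaling, as each gene's share of the family's reads. Nfatc1 took 40.1% and 36.1% of the reads on the 4 NFAT genes in CNS2KO 399 and 408, against 25.9 to 39.2% in WT, where 402 was lowest. Nfatc2 took 14.7 and 14.4% in CNS2KO and 12.6 to 24.6% in WT, Nfatc3 22.5 and 22.6% in CNS2KO and 19.6 to 26.1% in WT, and Nfat5 22.7 and 27.0% in CNS2KO and 22.0 to 32.8% in WT. All 4 NFAT shares overlapped between the genotypes. Nfatc2's highest share, 24.6%, was in WT 1032, and Nfat5's highest, 32.8%, was in WT 402.

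Of reads on the catalytic subunits, Ppp3cb took 52.1 and 49.8% in CNS2KO 399 and 408, against 40.8 to 49.2% in WT. Both CNS2KO shares lay above every WT share, but that of CNS2KO 408 (exact 95% Clopper-Pearson interval 48.1 to 51.5%, counting error only) could not be separated from that of WT 1032 (47.3 to 51.2%). The mean share of Ppp3cb was 50.9 ± 1.65% in CNS2KO (SD, n = 2) and 45.1 ± 3.73% in WT (SD, n = 5), a difference of 5.85 percentage points. An exact two-sided permutation over the libraries, which doubled the smaller tail, gave p = 0.095. With that doubling, 21 possible assignments allow no smaller value. Benjamini-Hochberg adjustment over the 8 shares and ratios compared gave 0.76. The permutation was not planned, since the shares were meant as description only. Ppp3ca took 40.3 and 37.4% in CNS2KO against 39.1 to 45.0% in WT, and Ppp3cc 7.61 and 12.8% in CNS2KO against 6.92 to 18.8% in WT. For every 100 catalytic reads there were 7.85 and 25.6 reads of Ppp3r1 in CNS2KO 399 and 408, against 8.30 to 26.5 in WT. The ratio of regulatory to catalytic reads thus spanned about the same range within each genotype, with CNS2KO 399 and WT 1037 low.

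**Figure D4:**
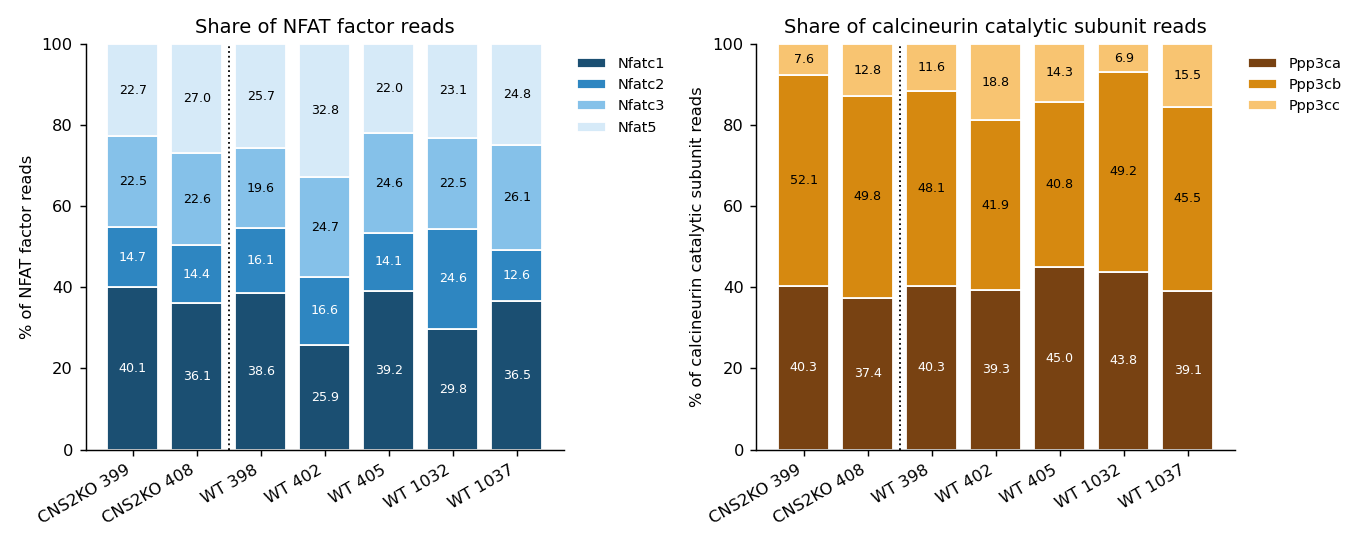
Percent of reads on the NFAT genes (left) and on the catalytic subunit genes (right) taken by each member, by library, CNS2KO left of the dotted line. Ppp3cb holds 52.1 and 49.8% in CNS2KO and 40.8 to 49.2% in WT.

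To compare levels between genes, CPM was divided by exon length from GENCODE M21. Per kilobase of all annotated exons, Nfatc1 was the most abundant member, with 16.1 ± 0.118 CPM per kilobase in CNS2KO and 15.0 ± 4.17 CPM per kilobase in WT. It led in 6 of 7 libraries, the exception being WT 402, where Ppp3r1 led. In WT it was followed by Ppp3r1 (8.02 ± 2.92 CPM per kilobase), Ppp3cb (7.38 ± 0.770), Ppp3cc (6.50 ± 2.22), Nfatc3 (6.49 ± 0.514), Ppp3ca (6.004 ± 0.702), Nfatc2 (5.15 ± 1.36) and Nfat5 (4.53 ± 0.751). Below Nfatc1, the WT means of neighbours in this order differed by less than the larger SD of the pair. With the length of the longest transcript instead, Nfatc1 led in 7 of 7 libraries, Ppp3cb followed it, Ppp3r1 stood behind Nfatc3 and Ppp3ca, and Nfat5 was again last by WT mean.

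Some orders held under either length. Nfatc1 exceeded Nfatc3 in 7 of 7 libraries, by 1.64 to 3.08 times per kilobase of all exons, and Nfatc3 exceeded Nfat5 in 7 of 7, by 1.18 to 1.75 times. Ppp3cb exceeded Ppp3ca in 7 of 7, by 1.03 to 1.51 times. The order of Ppp3ca and Ppp3cc rested on the length used, with Ppp3ca higher in 3 of 7 libraries per kilobase of all exons and in 7 of 7 by the longest transcript.

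**Figure D5:**
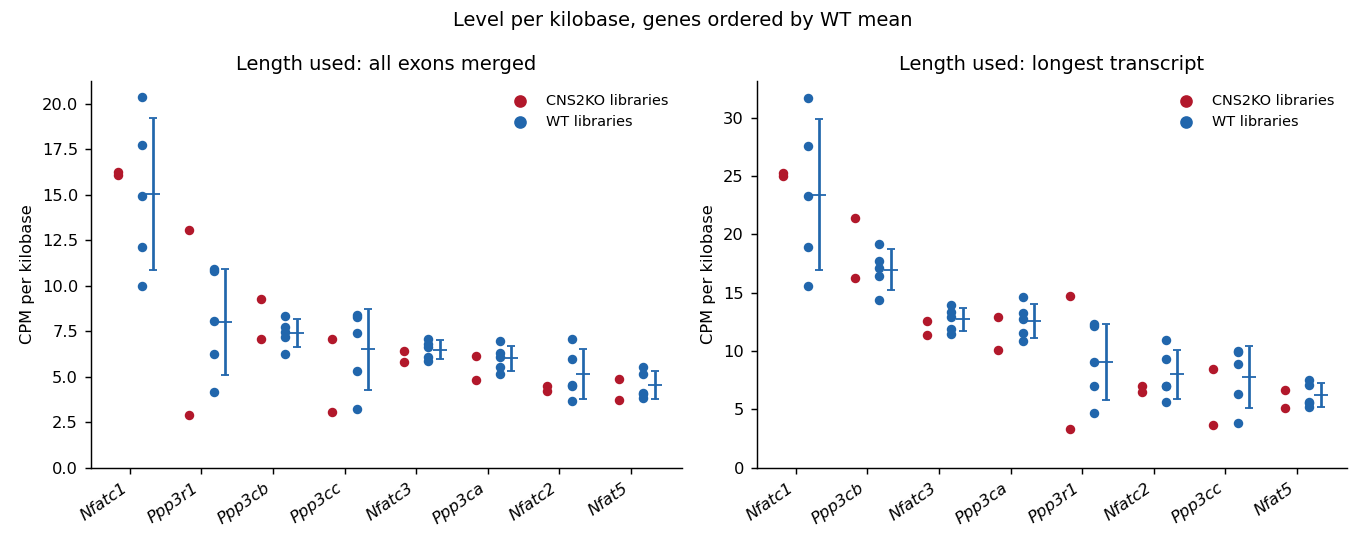
CPM per kilobase (y axis) of each member in CNS2KO (red) and WT (blue) libraries, ordered by WT mean, for merged exons (left) and the longest transcript (right); bars give the WT mean ± SD. Nfatc1 is first and Nfat5 last under both lengths.

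Upstream of calcineurin, the list of calcium signal genes held 12 genes, all tested. Of these, 0 passed edgeR's test (0% of all tested genes) and 1 had an unadjusted p under 0.05 (2.5%). Their log2 fold changes were above 0 in 4 (47.4% of all tested genes) and below 0 in 8 (52.6%). The median was -0.17 beside -0.03 for all genes. Without CNS2KO 399 that list's median was -0.06, beside -0.04 over all genes tested in that fit. In 2 of 12 both CNS2KO libraries lay outside the WT range (6.76% of all tested genes). Calm2, which encodes calmodulin, the calcium sensor that activates calcineurin, stood at 587 and 622 CPM in CNS2KO 399 and 408, against 354, 567, 389, 393 and 500.1 CPM in WT 398, 402, 405, 1032 and 1037. The estimated log2 fold change of Calm2 was 0.46 (SE 0.19, edgeR unadjusted p = 0.035, adjusted p = 0.9999). Both CNS2KO libraries were above every WT library, with WT 402 close below.

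Orai2, a pore subunit of the store-operated calcium channel, lay the other way, at 73.3 and 78.9 CPM in CNS2KO 399 and 408, against 104, 108, 87.6, 102 and 85.1 CPM in WT. Orai2 had a log2 fold change of -0.35 (SE 0.19, 95% interval -0.77 to 0.06). All WT libraries were above both CNS2KO libraries. The other Orai genes on the list had the opposite sign, Orai1 at 0.96 (95% interval -0.53 to 2.45) and Orai3 at 0.42 (-0.60 to 1.44). The endoplasmic reticulum calcium release channel Itpr2 stood at -0.19 (95% interval -0.68 to 0.29), and at -0.07 without WT 398.

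Of 6 listed calcineurin regulators, 5 were tested and 0 passed (0% of all tested genes). There were 2 above 0 (47.4% of all tested genes) and 3 below (52.6%), with a median log2 fold change of -0.17. Chp1, a relative of the regulatory subunit that can inhibit calcineurin and that the table lists under an older symbol, stood at 126 ± 12.9 CPM in CNS2KO and 141 ± 17.4 CPM in WT, a log2 fold change of -0.17 (SE 0.18). Rcan3, of the family of calcineurin inhibitors, stood at 0.04 and the inhibitor Cabin1 at -0.44. The sign of Rcan3 turned without CNS2KO 399 (-0.17), without WT 402 (-0.08) and without WT 1037 (-0.05). Without CNS2KO 408 the list's median was -0.64, beside -0.12 over all genes tested in that fit. Rcan1, an inhibitor whose transcription NFAT itself drives, had 0 CPM in CNS2KO 399, 2.54 CPM in CNS2KO 408 and 0 to 1.74 CPM in WT.

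Of 13 listed kinases, transport factors and partners of NFAT, 12 were tested and 0 passed (0% of all tested genes). There were 5 above 0 (47.4% of all tested genes) and 7 below (52.6%), with a median of -0.02. Csnk1a1 and Gsk3b, kinases that phosphorylate NFAT and return it to the cytoplasm, stood at -0.01 (SE 0.31) and -0.13 (SE 0.23), and the nuclear export receptor Xpo1 at 0.17 (SE 0.25). All 3 were lower in CNS2KO 399 than in CNS2KO 408: Csnk1a1 at 166 and 310 CPM, Gsk3b at 168 and 271 CPM and Xpo1 at 118 and 220.1 CPM. Without CNS2KO 399 Csnk1a1 stood at 0.37 and Gsk3b at 0.18, and without CNS2KO 408 Xpo1 stood at -0.35. The sign of Csnk1a1 also turned without WT 398 (0.08), 405 (0.01) or 1032 (0.09). The list's median was 0.14 without CNS2KO 399 and -0.37 without CNS2KO 408. Over all genes tested in those fits the medians were -0.04 and -0.12.

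Downstream, 11 of 15 listed genes that NFAT is known to induce in T cells were tested and 0 passed (0% of all tested genes). There were 6 above 0 (47.4% of all tested genes) and 5 below (52.6%), with a median of 0.09. Il2ra, the IL-2 receptor alpha chain, stood at -0.03 (SE 0.15), the inhibitory receptor Ctla4 at 0.14 (SE 0.17) and the receptor response gene Nr4a1 at 0.09 (SE 0.26). The list's median was -0.03 without CNS2KO 399, beside -0.04 over all genes tested in that fit. Signs turned for Nr4a1 without CNS2KO 399 (-0.11), for Ctla4 without CNS2KO 408 (-0.04), and for Il2ra without CNS2KO 399 (0.00) or WT 1032 (0.04). Cytokine genes of the list differed widely in their reads. Tnf had 444 and 279 reads in CNS2KO 399 and 408 and 224 to 319 in WT. Il2 stood at 1.42 and 1.77 CPM in CNS2KO and 0.243 to 1.58 CPM in WT, and Il21 had 0 reads in all 7 libraries.

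The authors also deposited 1 signed value per gene, with no groups, direction or log base named. In the authors' deposited table Nfatc1 had 0.004, Nfatc2 0.071, Nfatc3 -0.289 and Nfat5 -0.053. In the authors' deposited table Ppp3ca had 0.252, Ppp3cb -0.18, Ppp3cc 0.293 and Ppp3r1 0.224. What these values compare cannot be told from the files, so no direction was read from them.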

How the data were processed

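RNA of sorted cells was amplified by SMARTer and sequenced as Ion Proton libraries, per the labels' protocols. STAR, BWA, edgeR and mm9 are named, per the submitters' processing notes, with no versions or roles. For the read counter and annotation, the sources used here give none. Raw read counts for each gene were deposited by the authors, beside log2 values for the same columns and 1 signed score for each gene. The authors' log2 values equal log2 counts minus a constant per column above 1000 reads, and -8.244 at 0 reads; their scaling was not given. Both columns numbered 407 in each of these 2 tables hold identical values under a number that the labels give to a WT and a CNS2KO sample; these 2 columns were left out, so 5 of 6 WT and 2 of 3 CNS2KO samples were compared. No pair of used libraries agreed within sampling noise (lowest chi-square per degree of freedom 29.9).

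In R 4.3.3, 5 counter summary rows were set aside (reads on genes were 22.0 to 23.7% of each column). Genes were kept by filterByExpr, scaled by TMM and compared over all genes with the two-sided quasi-likelihood test of edgeR 4.0.16 (Benjamini-Hochberg, FDR 0.05). The test was checked on simulated data with changes larger than any member's estimate. That check does not show whether changes as small as the members' estimates would be called. Each SE is the size of the log2 fold change divided by the square root of its F statistic. Likeness used log2 CPM with a prior count of 2. A count of 3 reads corresponds to 0.142 to 0.182 CPM. Sequences and lengths came from GENCODE M21 on GRCm38; no coordinates are given, since the files use mm9. The alternatives tried were RLE scaling, upper-quartile scaling, no filter, a filter at 10 CPM in 2 libraries, DESeq2 1.42.0, limma-voom (3.58.1), WT numbers of 3 digits only, an FDR of 0.1 and each library left out; limma on the authors' log2 values was added after seeing the data. The members and lists were chosen with earlier results of these data known. Named genes are the members, Foxp3, the 3 most highly expressed of each list, any that passed or lay outside the WT range in both CNS2KO libraries, and the 3 genes most like Nfatc1 and Ppp3cb, the most highly expressed NFAT gene and catalytic subunit by CPM; other genes named with values were chosen after their values were seen. A gene that this rule names is not reported here.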

Additional observations from a re-analysis of the deposited data

How the results depend on the processing

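Of 22 named genes, which leave out the 6 picked for likeness to Nfatc1 or Ppp3cb, 0 passed under the 15 alternatives, and 23 of 330 values had the opposite sign to the reported one. Without a filter on low counts 8 genes passed (7 higher, 1 lower), none of them a member; leaving out each library kept the count at 0. Members with both CNS2KO libraries outside the WT range numbered 1 with WT numbers of 3 digits only, and 0 to 1 with each WT library left out. The gene was Nfatc2, without WT 1037. For Nfatc2, CNS2KO 408 and WT 405 nearly tied, at 47.71 and 47.75 CPM with all used libraries scaled together. Fewer WT libraries cannot widen the WT range, and the share over all tested genes was not taken in those fits. With 1 library left out the members' median log2 fold change ranged from -0.29 to 0.10. Ranges that crossed 0 were -0.013 to 0.24 for Nfatc1, -0.28 to 0.11 for Nfat5, -0.33 to 0.042 for Ppp3ca, -0.073 to 0.34 for Ppp3cb, -1.10 to 0.13 for Ppp3cc, -1.47 to 0.70 for Ppp3r1, -0.17 to 0.22 for Rcan3, -0.55 to 0.37 for Csnk1a1, -0.52 to 0.18 for Gsk3b, -0.35 to 0.56 for Xpo1, -0.085 to 0.040 for Il2ra, -0.043 to 0.30 for Ctla4 and -0.11 to 0.27 for Nr4a1. Ranges that stayed below 0 but moved by over 1.5 times were -0.34 to -0.10 for Nfatc2, -0.17 to -0.02 for Nfatc3, -0.27 to -0.07 for Itpr2, -0.28 to -0.06 for Chp1 and -0.64 to -0.28 for Cabin1. With WT numbers of 3 digits only Il2ra stood at 0.027. The causes were not tested. Over all alternatives Foxp3 ranged from -0.19 to -0.02. No paired analysis was possible because the groups share only the number 407, whose columns were left out. With 2 CNS2KO libraries, changes of the size inside the 95% intervals cannot be told from none.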
